A study of Mus musculus with 3 samples.

Results

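The subjects of these results are 5 genes for subunits of the G proteins that couple to vomeronasal receptors. They are the alpha subunit genes Gnai2 and Gnao1, the gamma subunit genes Gng8 and Gng13, and the beta subunit gene Gnb1. The genes were taken as a group for their known role, without a rule on their values, and they are 5 of the 32285 features counted in each library. Their levels were read in single cells of the mouse vomeronasal organ (VNO), a chemosensory organ at the base of the nasal cavity, in 3 libraries of male mice on a mixed background of C57 BL/6J and 129P2/OlaHsd. The P10 control library came from mice at postnatal day 10 that were heterozygous for OMPCre, in which Cre recombinase is made from the olfactory marker protein locus, and that carried no AP-2ε transgene. The P10 mutant and 3-month mutant libraries came from OMPCreR26AP2e double heterozygous mice, which add a Cre-dependent AP-2ε transgene at Rosa26. All 3 groups thus carried OMPCre. The transgene is switched on by Cre in cells that have begun to use the Omp promoter, so precursors precede it. AP-2ε, the product of Tfap2e, is a transcription factor of basal neurons, and the comparison asks what its ectopic expression does to apical neurons early and later. Each group was 1 library of papain-dissociated, frozen and thawed cells, so genotype cannot be told apart from library at P10, nor age from library between the mutants.

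A heterotrimeric G protein consists of an alpha subunit that binds GTP and a paired beta and gamma subunit, and an activated receptor releases both arms to act on effectors. In apical vomeronasal sensory neurons (VSNs) the receptors belong to the V1R family, and these cells are known for the alpha subunit Gαi2, encoded by Gnai2. Basal VSNs carry V2R receptors and are known for Gαo, encoded by Gnao1. The gamma subunits Gγ8 (Gng8) and Gγ13 (Gng13) are found in chemosensory neurons, and Gβ1 (Gnb1) is a widely used beta subunit. In VSNs, released beta-gamma dimers activate phospholipase C, and the lipid products open the TRPC2 channel.

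In the GRCm38 build, Gnai2 (ENSMUSG00000032562) lies on chr9:107614125-107635367, minus strand, and overlaps Gm19721 on the same strand. Gnao1 (ENSMUSG00000031748) lies on chr8:93809966-93969388, plus strand, and overlaps 4930488L21Rik and Gm24159 on the opposite strand. Gng8 (ENSMUSG00000063594) lies on chr7:16891786-16895436, plus strand. Gng13 (ENSMUSG00000025739) lies on chr17:25717171-25719406, plus strand, and overlaps Chtf18 on the opposite strand. Gnb1 (ENSMUSG00000029064) lies on chr4:155491361-155559269, plus strand, and overlaps Gm13171 on the opposite strand. All 5 are annotated as protein coding.

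Because the transgene encodes a DNA-binding factor, the RefSeq promoters (GRCm38.p6, from 250 bases before to 50 after a transcription start) were searched for the AP-2 core motif GCCNNNGGC, which is its own reverse complement. Of 32851 promoters, 5450 (16.6%) held it. Entries were found for 4 of the 5 genes, and Gng13 had 2 of the 5 entries. The promoters of the genes whose levels differed most between the P10 libraries in V1R neurons are shown, with a motif match in capitals. The Gnao1 window is chr8:93810588-93810887, plus strand, and the Gng13 window is its second entry, chr17:25717278-25717577, plus strand.
Gnao1: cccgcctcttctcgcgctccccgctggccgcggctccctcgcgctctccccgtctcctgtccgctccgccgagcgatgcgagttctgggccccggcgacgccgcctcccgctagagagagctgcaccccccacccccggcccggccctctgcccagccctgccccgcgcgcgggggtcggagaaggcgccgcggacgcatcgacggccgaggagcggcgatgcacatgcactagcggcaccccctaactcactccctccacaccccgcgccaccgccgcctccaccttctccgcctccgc
Gng13: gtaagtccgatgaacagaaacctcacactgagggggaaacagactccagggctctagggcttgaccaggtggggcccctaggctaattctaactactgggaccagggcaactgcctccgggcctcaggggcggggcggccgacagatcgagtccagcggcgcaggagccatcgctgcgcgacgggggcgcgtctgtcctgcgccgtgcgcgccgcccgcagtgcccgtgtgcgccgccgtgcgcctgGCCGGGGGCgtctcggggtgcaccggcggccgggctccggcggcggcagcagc
The match in Gng13 began at position -3 from the start site, and a match in Gnb1 began at position -213. The Gnao1, Gng8 and first Gng13 windows held none. These windows were rich in G and C (58.0% to 76.3%) against a median of 52.7% over all promoters, and a match of these letters is a description of the sequence only.

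Cells were kept when 200 to 9000 genes and at most 10% mitochondrial unique molecular identifiers (UMIs) were detected. From here on, 3 values in a row follow the order P10 control, P10 mutant, 3-month mutant. The filter passed 4795, 3956 and 6960 cells (58.5%, 44.6% and 67.6% of barcodes), and total UMI counts were 83870584, 80760046 and 70074800. Clusters were rebuilt without any G protein or receptor gene and were then named from marker lists. The list for mature neurons included the summed V1R and V2R receptor UMIs, and no list held a subunit gene of the 5. Unnamed clusters held 5.49%, 2.76% and 7.36% of cells. A mature neuron was called V1R or V2R when at least 80% of at least 5 receptor UMIs belonged to that family. An immature neuron was called when at least 80% of at least 3 marker UMIs were apical or basal. The apical markers were the V1R receptors, Meis2 and Nrp2, and the basal markers the V2R receptors and Robo2. The mature V1R class held 106, 37 and 53 cells, and the mature V2R class 24, 14 and 70. Median UMIs of the mature V1R cells were 19436, 24380 and 1592, so the 3-month neurons were much shallower. Robo2 had 0, 9 and 0 UMIs in the mature V1R cells and 76, 31 and 81 in the mature V2R cells. Levels are the pooled UMIs of a gene per 1000000 UMIs of the class (CPM), with exact Poisson 95% intervals in brackets, and ratios carry conditional exact binomial 95% intervals. The intervals cover counting error only, not the variation between cells or mice. A ratio is called higher or lower here when it was at least 2-fold and its interval left out 1, which is no test between groups. UMIs were not divided by transcript length, so levels are compared between cells and not between genes.

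Gnai2 was the apical alpha subunit in all 3 libraries. In mature V1R neurons it was at 3565 CPM [3474, 3658], 2815 [2694, 2940] and 2239 [2101, 2383]. In mature V2R neurons it was at 354 CPM [303, 411], 1361 [1235, 1497] and 326 [284, 372]. The V2R neurons were lower in every library. The V2R to V1R ratio was 0.0993 [0.0849, 0.116], 0.483 [0.434, 0.537] and 0.146 [0.125, 0.169]. Even the P10 control value was carried by few cells: 1 of the 24 V2R cells held 91.3% of their 173 Gnai2 UMIs, the median cell was at 0 CPM, and without that cell the ratio was 0.00920. V2R cells in which Gnai2 made up at least 80% of the alpha UMIs, described further on, held 420 of 426 Gnai2 UMIs in the P10 mutant, and without such cells the ratios were 0.00911, 0.0113 and 0.0148. Such cells were picked by their Gnai2, so the low ratios without them follow from that choice.

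Gnao1 showed the reverse order. In mature V2R neurons it was at 483 CPM [423, 549], 425 [356, 504] and 541 [487, 599]. In mature V1R neurons it was at 15.3 CPM [9.89, 22.6], 105 [83.0, 132] and 52.1 [33.0, 78.1]. V2R neurons were higher by 31.6-fold [20.9, 49.8], 4.04-fold [3.02, 5.42] and 10.4-fold [6.82, 16.6]. With each cell given equal weight, the first of these folds was 12.2. The P10 control V1R level was close to the pooled 16.1 CPM [14.5, 17.9] of immune, stromal and endothelial cells of that library. That pool was uneven, with smooth muscle or pericytes at 26.8 CPM and fibroblasts and osteoblasts at 24.3. The median of 12 non-neuronal classes was 2.53 CPM. The P10 mutant and 3-month V1R levels stood above the corresponding pools, at 10.4 [9.07, 11.8] and 16.8 [15.3, 18.5] CPM. Fibroblasts and osteoblasts of the 3-month mutant, at 57.7 CPM, were not below its V1R neurons.

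Of the gamma subunits, Gng8 was shared by both neuron types and Gng13 was not. Gng8 was at 1642 CPM [1580, 1705], 1744 [1649, 1843] and 1648 [1530, 1772] in mature V1R neurons and at 2153 [2025, 2287], 1971 [1819, 2133] and 1846 [1745, 1951] in mature V2R neurons. The V2R to V1R ratio of Gng8 was 1.31 [1.22, 1.41], 1.13 [1.02, 1.25] and 1.12 [1.02, 1.23]. Gng13 was at 2577 CPM [2499, 2656] in mature V1R neurons of the P10 control against 311 [264, 365] in V2R neurons, a ratio of 0.121 [0.102, 0.142]. In the P10 mutant it was at 901 CPM [833, 973] against 387 [321, 462], a ratio of 0.429 [0.351, 0.522]. In the 3-month mutant it was at 663 CPM [589, 744] against 67.8 [49.6, 90.5], a ratio of 0.102 [0.0732, 0.140]. The apical excess of Gng13 was present in all libraries. Without the V2R cells in which Gnai2 led, the Gng13 ratios were 0.0731, 0.0590 and 0.00749, so the P10 mutant then no longer had the highest.

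Gnb1 was high in both types. It was at 4225 CPM [4126, 4326], 3794 [3653, 3938] and 2454 [2310, 2604] in mature V1R neurons and at 3458 [3295, 3627], 3288 [3090, 3495] and 2257 [2145, 2373] in mature V2R neurons. The V2R to V1R ratios of 0.818, 0.867 and 0.920 were within 2-fold in every library. In these V2R to V1R comparisons 3 of the 5 genes, Gnai2, Gnao1 and Gng13, passed the 2-fold rule in every library. Over all genes with at least 10 UMIs, 8.91%, 4.79% and 7.62% passed.

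**Figure D1:**
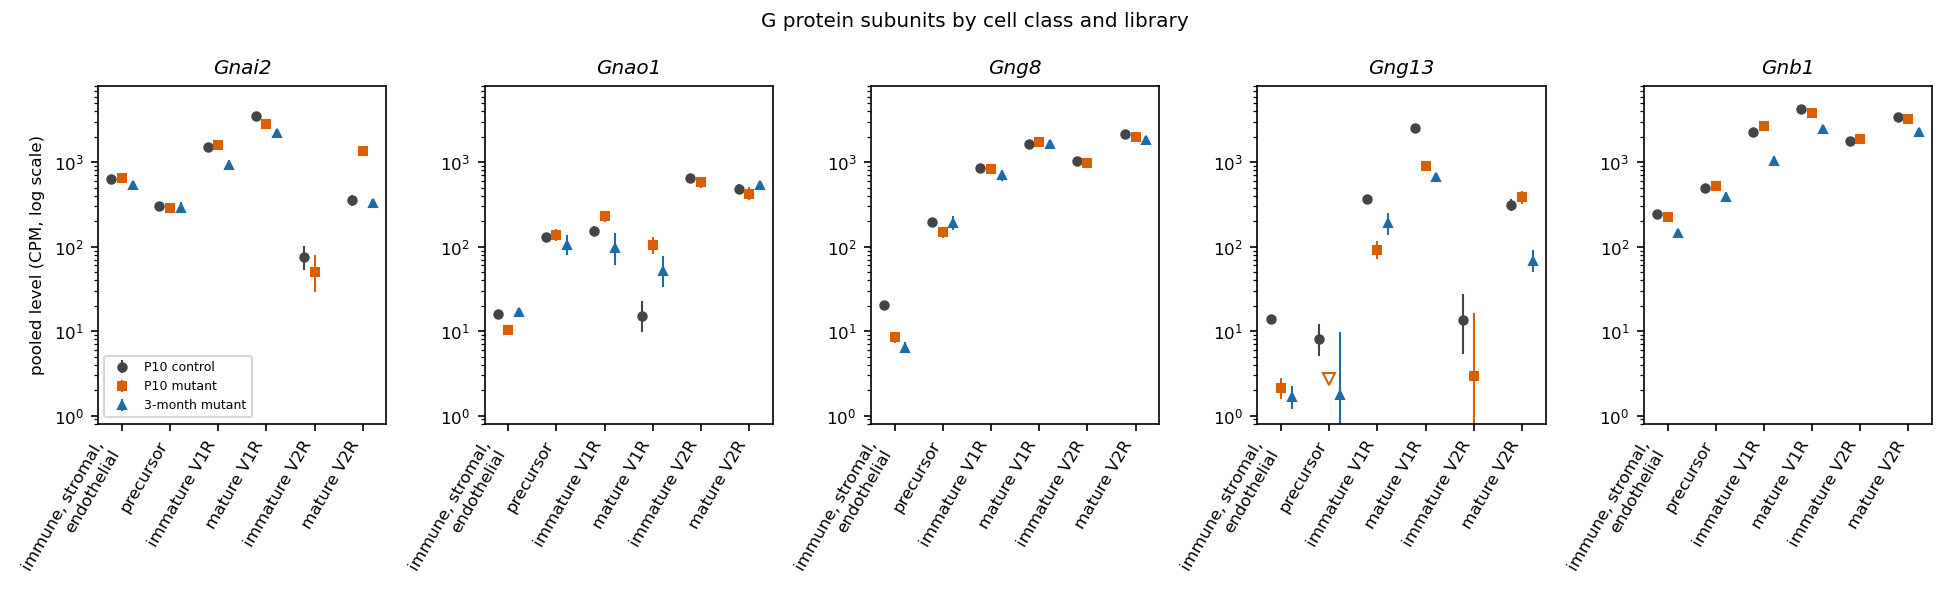
Pooled level of each subunit gene (CPM, log scale) by cell class, with exact Poisson 95% intervals, for the 3 libraries (circles, squares and triangles as in the key); the open triangle stands for 0 UMIs and is drawn at the level of 3 UMIs, and classes under 10 cells are not drawn. Among the classes drawn, Gnai2 and Gng13 are highest in mature V1R neurons, Gnao1 in V2R neurons, and Gng8 and Gnb1 rise with maturation in both types.

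The alpha subunits were also read cell by cell, among mature neurons with at least 5 UMIs of Gnai2 and Gnao1 together. Gnai2 made up at least 80% of these UMIs in 93 of 93, 29 of 31 and 19 of 19 V1R cells. Among V2R cells, Gnao1 made up at least 80% in 17 of 20, 7 of 12 and 23 of 30. The pairing of receptor family and alpha subunit thus held in most cells, and it was looser in the V2R cells than in the V1R cells. Gnai2 made up at least 80% in 1 of 20 V2R cells (5.0%, Clopper-Pearson 95% interval 0.127 to 24.9), 5 of 12 (41.7%, 15.2 to 72.3) and 4 of 30 (13.3%, 3.76 to 30.7).

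These 10 V2R cells with Gnai2 were described further, a set chosen after their values were seen. All of them held at least 4 UMIs of the apical transcription factor gene Meis2 and at most 1 of Robo2. The 17, 7 and 23 V2R cells led by Gnao1 held no Meis2 UMI. The V1R receptor UMIs of the 10 cells numbered 0 to 2 per cell, and in 7 of them at least 100 V2R UMIs were counted. The leading receptor of the control cell was Vmn2r67 with 109 UMIs, and Vmn2r122 led 1 P10 mutant cell with 289 UMIs and 1 3-month mutant cell with 164. Tfap2e was detected in all 9 mutant cells and not in the control cell. Their Gng13 level was 2431 CPM [1876, 3099], 889 [732, 1071] and 580 [420, 782]. In V2R cells led by Gnao1 it was 77.7 [52.0, 112], 55.2 [26.5, 102] and 2.26 [0.0572, 12.6]. V1R cells led by Gnai2, at 2580, 953 and 706 CPM, lay inside the intervals of these V2R cells in their own library. Gng8 was at 2543, 2179 and 1444 CPM in the Gnai2-led and at 2092, 1871 and 2038 CPM in the Gnao1-led V2R cells. V2R receptors of family C, which are co-expressed with others in basal neurons, made up 0%, 2.92% and 1.65% of their V2R UMIs against 9.26%, 9.61% and 14.5% in the Gnao1-led cells. The lowest V2R counts were 8 (Vmn2r110) and 10 (all Vmn2r7, of family C) in P10 mutant cells and 11 (9 of Vmn2r7) in a 3-month cell. Family C also made up 94.6%, 81.9% and 98.3% of the few V2R UMIs in V1R cells led by Gnai2. The V2R call of the cells led by Vmn2r7 is therefore weak.

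**Figure D2:**
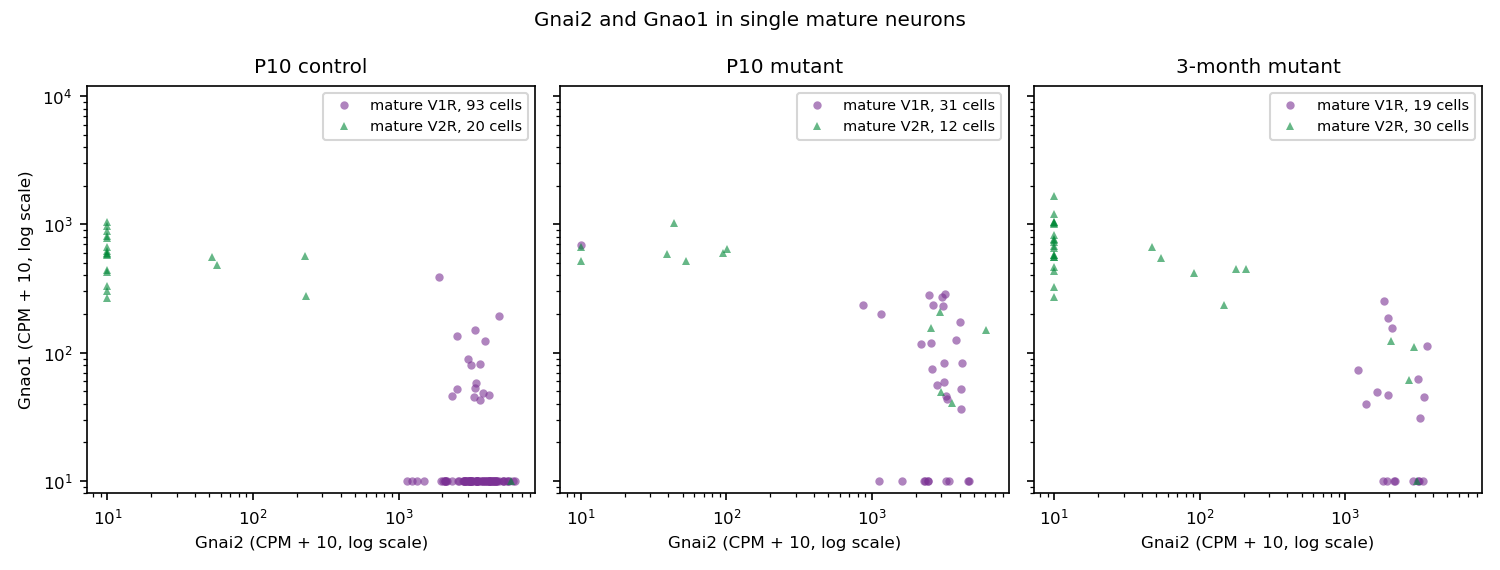
Gnai2 (horizontal) and Gnao1 (vertical) in single mature neurons, each as CPM + 10 on log axes, for the cells with at least 5 UMIs of both genes together in each library; circles are V1R and triangles V2R cells. Most V1R cells lie at the right and most V2R cells at the upper left, while 1, 5 and 4 V2R cells lie among the V1R cells and 1 P10 mutant V1R cell lies among the V2R cells.

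Along the lineage of the P10 control, the subunits differed in the stage at which they were read. Precursors with the transcription factor gene Neurod1 formed a dividing and a non-dividing sub-cluster, with the proliferation gene Mki67 at 462 and 8.44 CPM. In the dividing Neurod1 sub-cluster (19 cells) Gnb1 was at 452 CPM [388, 524], Gnai2 at 143 [108, 186], Gnao1 at 166 [128, 212] and Gng8 at 176 [137, 223], while Gng13 had 0 UMIs. In Neurod1 precursors that were not dividing (68 cells) Gnai2 was at 602 CPM [550, 657], Gnao1 at 339 [300, 381] and Gng8 at 551 [502, 604], so both alpha subunit genes were read in the same sub-cluster. Among all precursors with at least 5 UMIs of the alpha genes, neither gene reached 80% in 58 of 104 cells (55.8%, 45.7 to 65.5).

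The alpha subunits then parted. Of the apical sub-clusters, from early immature to late immature to mature, Gnai2 was at 1169, 2084 and 3671 CPM and Gnao1 at 81.6, 147 and 22.2 CPM. Of the basal sub-clusters, in the same order, Gnai2 was at 324, 90.4 and 34.9 CPM and Gnao1 at 387, 669 and 519 CPM. Gng13 came last of the 5: it was at 13.6 CPM (10 UMIs) in early immature apical cells, 774 [717, 835] in late immature apical cells and 2584 [2510, 2659] in mature ones. The late immature apical sub-cluster also took in 7 main olfactory-like cells of the P10 control, which are not part of these levels, and its leading genes included S100a5, Stoml3 and olfactory receptor genes next to Gap43. Those 7 cells held 907 S100a5 UMIs and the 46 immature V1R cells 2. In the basal order Gng13 was at 17.7 [7.11, 36.5], 10.7 [4.90, 20.3] and 168 [131, 211] CPM. Gng8 and Gnb1 were higher at each later stage on both sides. In immature cells that held both apical and basal markers (42 cells in the P10 control), Gnao1 was at 522 CPM and Gnai2 at 203, nearer to the basal than to the apical balance.

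**Figure D3:**
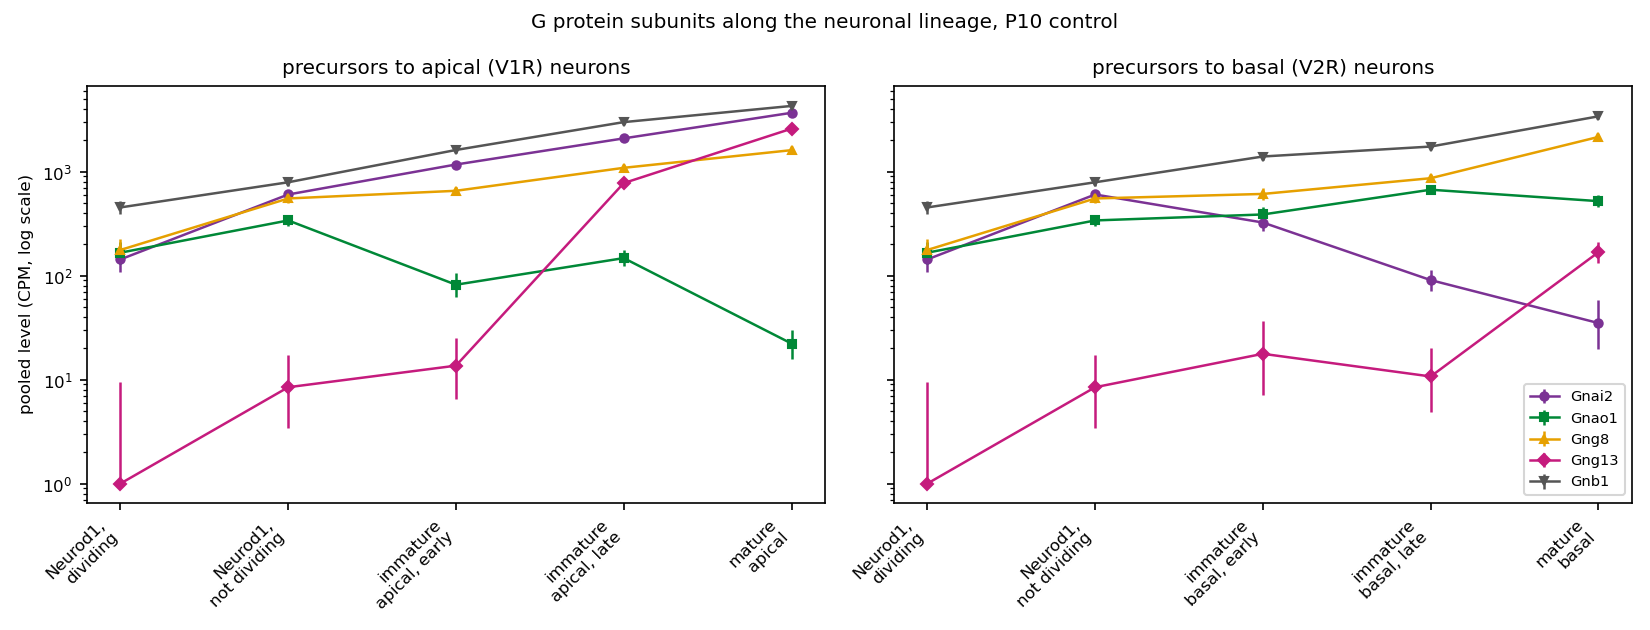
Pooled level (CPM, log scale) of each subunit gene with Poisson 95% intervals in P10 control sub-clusters, from Neurod1 precursors to mature neurons, for the apical side at left and the basal side at right; the first 2 points are the same cells in both, and the Gng13 point at 1 CPM stands for 0 UMIs. Gnai2 and Gnao1 part in immature cells, and Gng13 is first read at a high level in late immature apical cells.

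By class, immature V1R neurons of the P10 control (138 cells) had Gnai2 at 1499 CPM, 0.421 of the mature V1R level [0.402, 0.440], and Gnao1 at 155 CPM, 10.1-fold above it [6.73, 15.9]. Gng13 was at 372 CPM, 0.144 of the mature V1R level [0.133, 0.156], while Gng8 and Gnb1 were at 0.524 and 0.538 of it. Across all genes, 22.2% passed the 2-fold rule in this comparison. Immature V2R neurons (39 cells) had Gnao1 at 655 CPM, 1.36 times the mature V2R level [1.15, 1.61], and Gng8 at 1039 CPM, 0.482 of it [0.434, 0.536], against 15.6% of all genes past 2-fold. Their Gng13 rested on 7 UMIs (13.5 CPM) and their Gnai2 on 39 (75.1 CPM). Immature V2R neurons differed from immature V1R neurons in the same genes as the mature cells: Gnai2 was at 0.0501 [0.0356, 0.0687], Gng13 at 0.0363 [0.0145, 0.0751] and Gnao1 at 4.23 [3.60, 4.96] times the V1R level, against 8.69% of all genes past 2-fold. Receptor UMIs entered the choice of these immature classes next to Meis2, Nrp2 and Robo2, while G protein genes did not. With all immature cells set against all mature cells, the ratios were 0.339 for Gnai2, 2.68 for Gnao1, 0.493 for Gng8, 0.112 for Gng13 and 0.496 for Gnb1. All 5 passed the rule there, as did 23.2% of all genes. Gng8 and Gnb1 lay at its edge, and Gng8 was at 0.542 with a mitochondrial limit of 5% and at 0.619 with stage read from Omp against Gap43.

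Outside the neuronal lineage, Gnai2 was read at a substantial level in many types, and the other 4 genes stood far below their neuronal levels in most. Neuronal lineage cells of the P10 control were above non-neuronal cells by 8.07-fold for Gnb1 [7.89, 8.26], 18.6-fold for Gnao1 [16.8, 20.6], 43.8-fold for Gng8 [40.9, 46.8] and 45.6-fold for Gng13 [42.3, 49.3]. For Gnai2 the fold was 3.21 [3.14, 3.29]. Of all genes, 48.6% passed the rule in this comparison. Gnai2 is also an alpha subunit of many immune and vascular cells, and among 12 or 13 non-neuronal classes per library it was highest in endothelial cells, at 1208, 1150 and 933 CPM. These levels were above those of precursors, at 307, 287 and 290 CPM. Gnai2 was lowest in gland cells, at 138, 147 and 89.5 CPM. Gnao1 reached at most 26.8, 28.7 and 57.7 CPM in a non-neuronal class, in smooth muscle or pericytes at P10 and in fibroblasts and osteoblasts in the 3-month mutant. The highest Gng8 and Gng13 levels of these classes in the P10 control were in glia (55 cells), at 81.7 and 89.4 CPM, with 84.4% and 91.4% of the UMIs in 1 cell.

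An exception for Gng13 was a small class of tuft or solitary chemosensory cells, which carry taste-like receptors and are known to use Gγ13 with Gβ3 and gustducin. It held 10, 5 and 21 cells, and Gng13 was detected in 7, 4 and 14 of them. Gng13 was at 2912 CPM [2668, 3171], 3662 [3268, 4091] and 2606 [2408, 2815] in them, a level of the order of that in P10 control V1R neurons. Gnat3, the gustducin alpha subunit gene, was at 1309, 2843 and 1866 CPM and was detected in 4, 4 and 11 of the cells. Gnb3 was at 1674, 2878 and 1256 CPM and was detected in 5, 4 and 15. In the P10 control 1 cell held 65.8% of the Gnat3 and 61.7% of the Gnb3 UMIs. Neither Gnat3 nor Gnb3 had a UMI in mature V1R or mature V2R neurons of any library. Gng8 had 1, 1 and 0 UMIs in these cells, and Gnb1 was at 332, 328 and 170 CPM. Tfap2e was at 0, 608 and 88.9 CPM in them.

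**Figure D4:**
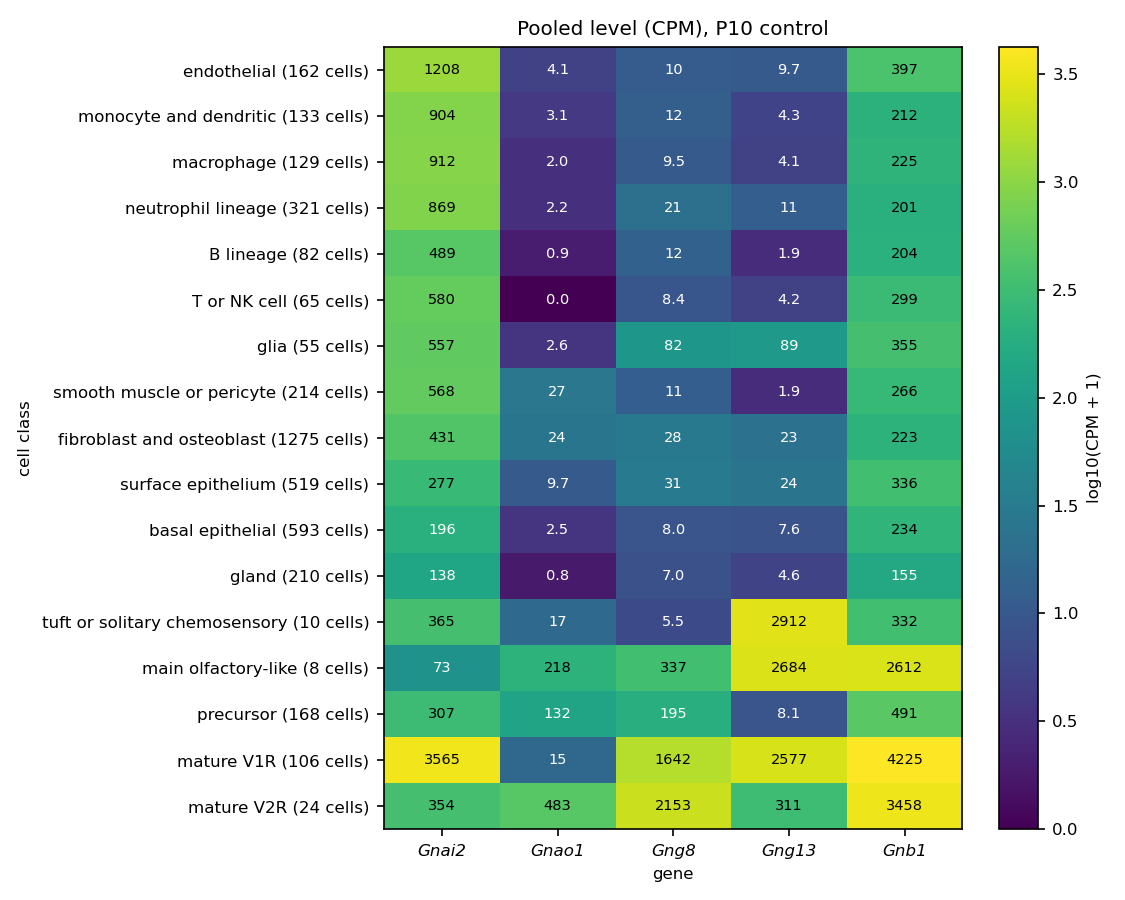
Pooled level of the 5 genes (CPM, printed in each box, with colour on a log10(CPM + 1) scale) in the cell classes of the P10 control, with the number of cells of each class. Gnai2 is read in every class, Gng13 in tuft or solitary chemosensory cells, main olfactory-like cells and V1R neurons, and Gnao1 and Gng8 mainly in the neuronal lineage.

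In mature V1R neurons, the P10 mutant had more Gnao1 and less Gng13 than the P10 control. Tfap2e, the targeted gene, was at 0.612 CPM [0.0155, 3.41], 683 [624, 746] and 258 [213, 310] in these neurons, against 143, 527 and 231 CPM in mature V2R neurons, which use the gene themselves. Gnao1 had 25 UMIs over 106 control cells and 76 over 37 mutant cells, a ratio of 6.89 [4.33, 11.3]. It was detected in 18 of 106 control and 22 of 37 mutant cells, or in 3.14% and 16.8% after each cell was thinned to 2000 UMIs, against 0.478% and 0.591% of thinned macrophages. Median depths were 19436 and 24380 UMIs in the V1R cells and 11171 and 10852.5 in macrophages. The level reached in the mutant V1R neurons was below that of P10 control V2R neurons (105 against 483 CPM). With each cell given equal weight the ratio was 2.77; the highest control cell, at 1562 CPM, held 2 Gnao1 UMIs among 1280. A single mutant cell held 15 of the 76 UMIs, and without the top cell of each class the ratio was 6.38. In the sub-cluster that held 73 of the control and 26 of the mutant cells, Gnao1 was at 13.5 and 87.4 CPM, a ratio of 6.45 [3.86, 11.2].

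Gng13 was at 0.350 of the control level [0.321, 0.380] in P10 mutant V1R neurons. The quartiles over cells were 1405, 2526 and 3295 CPM in the control and 367, 735 and 1247 in the mutant. The upper quartile of the mutant thus lay under the lower quartile of the control, although the extremes overlapped, at 0 to 10063 and 0 to 3117 CPM. Within the main sub-cluster the ratio was 0.363 [0.333, 0.395], with Omp at 0.804 [0.698, 0.925] and Gap43, a gene of growing axons in immature neurons, at 0.931 [0.780, 1.11] of the control. Gng8 at 1.06 [0.993, 1.14], Gnb1 at 0.898 [0.859, 0.938] and Gnai2 at 0.790 [0.751, 0.831] of the control were all within 2-fold. So 2 of the 5 genes passed the rule, 1 in each direction, against 5.61% of all genes. Mast cell markers summed to 402 CPM in the control V1R class and to 0 in the mutant, and gland markers to 409 and 73.4 CPM, while 5 of 6 tuft markers were at 0 in both, and the part of the mast and gland RNA in these ratios was not tested.

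**Figure D5:**
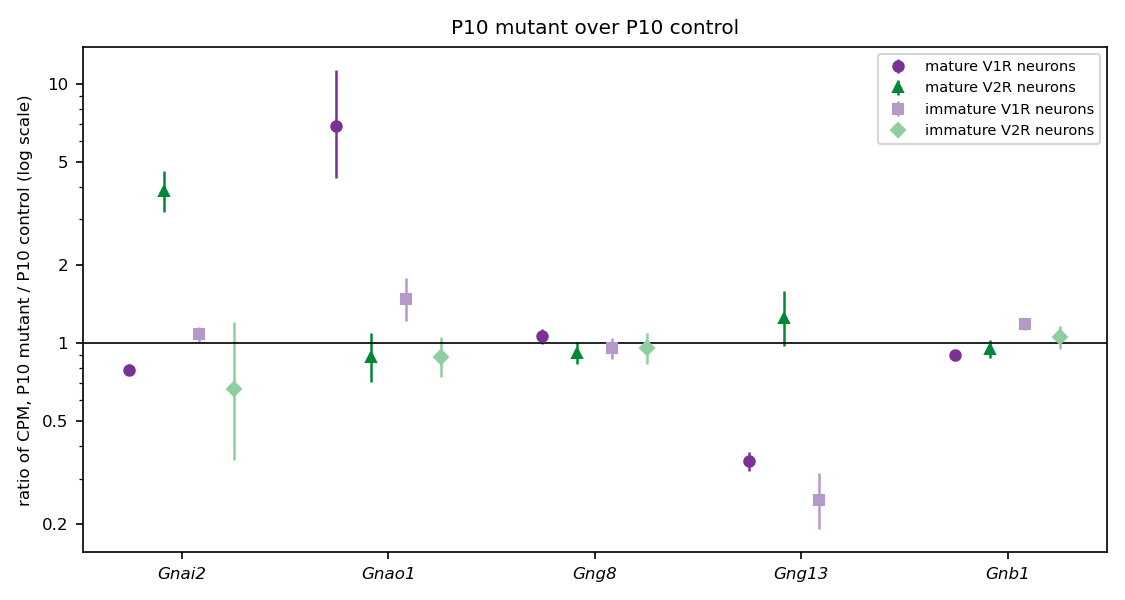
Ratio of CPM between the P10 mutant and P10 control (log scale) for the 5 genes in mature and immature V1R and V2R neurons, with conditional exact binomial 95% intervals; the line marks a ratio of 1, and Gng13 of immature V2R neurons, with 1 and 7 UMIs, is not drawn. Gng8 and Gnb1 lie between 0.898 and 1.18, Gnao1 is above it and Gng13 below it in V1R neurons, and Gnai2 is above it in mature V2R neurons.

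Immature V1R neurons of the P10 mutant already differed in Gng13. It was at 91.8 CPM [71.8, 116] against 372 [345, 401] in the control, a ratio of 0.247 [0.191, 0.315], with Gnao1 at 1.47 [1.21, 1.78], Gnai2 at 1.08, Gng8 at 0.955 and Gnb1 at 1.18. Of all genes, 4.65% passed the rule. Cells with at least 8 Gng13 UMIs numbered 18 of 138 in the control and 4 of 55 in the mutant. Within the late immature apical sub-cluster, Gng13 had 665 UMIs over 46 control cells and 68 over 27 mutant cells, a ratio of 0.162 [0.124, 0.208]. The mutant cells of that sub-cluster also had less Omp, at 0.451 of the control [0.314, 0.637], and more Gap43, at 1.21 [1.12, 1.31], so stage moved together with Gng13 and its part was not tested. The control cells of the sub-cluster held 17 Stoml3 and 7 Gnal UMIs and the mutant cells none. The control cell with the most Gng13, 89 UMIs, held 18 Meis2, 5 Nrp2 and 5 Gnal UMIs and no V1R UMI. Without cells that held a UMI of Gnal or of an olfactory receptor gene, an alternative chosen after seeing the data, 33 control and 23 mutant cells of the sub-cluster were left, with 419 and 59 Gng13 UMIs and a ratio of 0.175 [0.131, 0.231]. When each library was clustered on its own, 111 control and 9 mutant cells were immature V1R, and Gng13 and Gnao1 then had ratios of 1.45 and 0.456.

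Mature V2R neurons of the P10 mutant differed in Gnai2, at 3.84 times the control [3.21, 4.61], while Gnao1 was at 0.880 [0.706, 1.09], Gng8 at 0.916 [0.828, 1.01], Gng13 at 1.24 [0.971, 1.59] and Gnb1 at 0.951 [0.879, 1.03]. Here 1 of 5 genes passed, against 4.18% of all genes. The Gnai2 value rested on the cells in which Gnai2 led, which held 420 of 426 UMIs in the mutant and 158 of 173 in the control. Without them, an alternative chosen after the data had been seen, the ratio was 0.982 for Gnai2 and 0.282 for Gng13. The cells left out were picked by their share of Gnai2, so the fall in the Gnai2 ratio follows from that choice. The Gng13 ratio of 0.282 rested on few UMIs. In the V2R cells led by Gnao1, Gng13 was at 77.7 CPM [52.0, 112] in the control (29 UMIs). It was at 55.2 CPM [26.5, 102] in such cells of the P10 mutant (10 UMIs), and these intervals overlapped. In immature V2R neurons (39 and 21 cells) all 5 genes were within 2-fold or rested on fewer than 10 UMIs, with Gnao1 at 0.886 [0.739, 1.06] and Gnai2 at 0.666 [0.353, 1.21], against 4.05% of all genes past the rule. In precursors, which precede Omp use, Tfap2e was at 1.41 CPM in the control and 25.9 in the mutant, against 0.509 and 23.6 CPM in immune, stromal and endothelial cells. Of the members, Gnai2 at 0.937 [0.822, 1.07], Gnao1 at 1.05 [0.866, 1.27], Gng8 at 0.757 [0.632, 0.902] and Gnb1 at 1.06 [0.964, 1.17] of the control were within 2-fold in precursors, against 2.79% of all genes past the rule. Gng13 passed there with 23 UMIs in 168 control cells and 0 in 69 mutant cells, which allows up to 2.68 CPM. Its 8.11 CPM in control precursors was below the 13.9 CPM of immune, stromal and endothelial cells of that library, whose level in the mutant was 2.12 CPM. Non-neuronal cells were uneven in Gng13: over 12 classes of the control it ran from 1.89 to 89.4 CPM, with a median of 6.08. The part of free RNA in the precursor value was not tested.

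Between the mutant libraries, the V1R neurons of the 3-month library had Gnao1 at 0.494 of the P10 mutant level [0.296, 0.797], Gng13 at 0.736 [0.639, 0.847], Gnb1 at 0.647 [0.602, 0.694], Gnai2 at 0.795 [0.736, 0.858] and Gng8 at 0.945 [0.861, 1.04]. Only Gnao1 passed 2-fold, against 9.21% of all genes, and its ratio was 0.527 in cells with at least 2000 UMIs and 0.163 with a mitochondrial limit of 5%. The 3-month V1R cells fell mostly in a shallow sub-cluster (32 of 53 cells) that held none of the P10 mutant, and gland markers summed to 3477 CPM in them. Pooled levels rest mostly on the deeper cells: 19 V1R cells led by Gnai2, with a median of 20545 UMIs, held 395441 of the 441767 UMIs of this class. The part of gland RNA and depth in these ratios was not tested. In V2R neurons Gnai2 was at 0.239 [0.203, 0.282] and Gng13 at 0.175 [0.122, 0.248] of the P10 mutant, with Gnao1 at 1.27 [1.04, 1.57], Gng8 at 0.936 and Gnb1 at 0.687. There 2 of 5 genes passed, against 9.09% of all genes. Without the V2R cells in which Gnai2 led, the ratio was 1.04 for Gnai2, 0.939 for Gnao1 and 0.0934 for Gng13, the last resting on 3 UMIs in the 3-month cells. The shift of the Gnai2 and Gnao1 ratios follows from picking those cells by the same 2 genes. Of the 70 V2R cells at 3 months, 32 lay in the shallow sub-cluster and 34 in the one that held 20 of the 24 P10 control V2R cells. In 3-month immature V1R neurons (23 cells), 44 of 45 Gng13 UMIs lay in 1 cell with 24 Nrp2, 0 Meis2 and 5 Gnal UMIs. Gnal encodes the alpha subunit of main olfactory neurons.

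The wider family was read from 5 lists: 16 alpha, 5 beta and 12 gamma subunit genes, 21 chaperones and regulators, and 24 effectors and channels. Between mature V2R and V1R neurons of the P10 control, 1 alpha gene was higher and 1 lower of 9 with at least 10 UMIs, 0 and 1 of 4 beta, 0 and 2 of 7 gamma, 1 and 1 of 9 regulators, and 3 and 0 of 15 effectors, against 3.79% of all genes higher and 5.11% lower. The list medians ran from 0.867 to 1.11 against 0.969 over all genes. Gng2, a broadly used gamma subunit gene, was the second apical gamma gene: it was at 1449 CPM [1392, 1509], 1126 [1050, 1207] and 1315 [1210, 1427] in V1R neurons and 174 [139, 215], 425 [356, 504] and 115 [90.9, 144] in V2R neurons. Its apical excess was present in immature neurons of the P10 control too, with a V2R to V1R ratio of 0.143 [0.108, 0.186]. Gnb4 had 0 UMIs in V2R and 18 in V1R neurons. Of the others, Homer2, a scaffold of receptor signaling, was at 4.53 [3.37, 6.10], the calcium channel gene Itpr1 at 4.18 [2.23, 7.94], the diacylglycerol kinase gene Dgkg at 6.69 [2.32, 21.7] and Rgs2 at 3.35 [1.09, 10.2] times the V1R level. Dgkg rested on 12 V2R and 6 V1R UMIs, and Rgs2 on 8 and 8. Rgs3, like Rgs2 a gene of a regulator that speeds GTP hydrolysis, was at 0.323 [0.135, 0.665]. The Itpr1 order was the reverse in the P10 mutant, at 0.443 [0.201, 0.882], and in the 3-month mutant, at 0.169 [0.0621, 0.397]. In the same 2 libraries Homer2 was at 3.01 [2.09, 4.34] and 4.34 [1.83, 12.5]. Dgkg was at 1.15 [0.254, 4.30] and 1.30 [0.556, 3.29] there, and Rgs2 at 1.30 [0.406, 4.86] in the 3-month mutant.

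From immature to mature neurons of the P10 control, 5 of 9 gamma genes and 3 of 4 beta genes were higher in mature cells, and 6 of 11 alpha genes were higher in immature cells, against 12.1% of all genes higher in mature and 11.1% higher in immature cells. Both pools mixed V1R, V2R and other neurons. Within V1R neurons, 2 of 8 gamma and 2 of 4 beta genes were higher in mature cells. Of 10 alpha genes, 5 were higher in immature cells, and 1 gene of each list went the other way. Within V2R neurons the counts were 2 of 6 gamma, 0 of 3 beta and 1 of 9 alpha genes. There 1 beta and 1 alpha gene went the other way. Of all genes, 11.3% (V1R) and 7.82% (V2R) were higher in mature and 10.9% and 7.74% in immature cells. The list medians of the pooled immature to mature ratio were 2.09 for alpha, 0.442 for beta and 0.493 for gamma genes, against 1.03 over all genes. The beta subunit genes changed over: Gnb2 was at 325 CPM in immature and 20.4 in mature neurons, a ratio with the interval [11.9, 21.8], while Gnb1 was higher in mature neurons. Gnas, encoding the alpha subunit that stimulates adenylyl cyclase, was at 1700 and 717 CPM, a ratio of 2.37 [2.24, 2.51]. Of the effectors, Stom at 0.0859 [0.0722, 0.102] and the chloride channel genes Ano1 at 0.117 [0.0647, 0.199] and Ano2 at 0.389 [0.296, 0.507] were lower in immature neurons, as Gng13 was.

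In mature V1R neurons of the P10 mutant against the control, 1 of 9 alpha genes (Gnao1) was higher, 1 of 7 gamma (Gng13) and 1 of 4 beta genes (Gnb4, 1 and 18 UMIs) were lower, and 0 of 9 regulators passed, against 2.60% of all genes higher and 3.01% lower. Of 15 effectors 2 were higher: the phospholipase gene Plcb4 at 2.85 [1.67, 4.92] and Itpr1 at 5.89 [3.46, 10.4]. The list medians were 1.04, 0.996, 0.960, 1.15 and 1.23 for alpha, gamma, beta, regulator and effector genes, against 0.982 over all genes. Gnao1 and Itpr1, higher in mutant V1R neurons, were also higher in V2R than V1R neurons of the control, a pair of comparisons that shares the control V1R cells. In mutant V2R neurons, Gng2 at 2.44 [1.85, 3.25] and Gnai2 were the genes of the lists that passed. In immature V1R neurons, besides Gng13, the regulator gene Rgs17 at 0.269 [0.0694, 0.752] was lower and the phospholipase gene Plcb3 at 2.21 [1.05, 4.66] higher, and Gnai1 (19 and 0 UMIs in control and mutant) and Rgs7 (12 and 0) were read in the control alone. In immature V2R neurons Gng2 at 2.23 [1.58, 3.16], Gna11 at 3.06 [1.37, 7.31] and Rgs2 (1 and 10 UMIs) were higher in the mutant. In precursors Rgs5 (35 and 1 UMIs), a marker of pericytes, was lower.

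The genes most alike to each member in pattern were found by the Pearson correlation of log2(CPM + 1) over 51 pairs of class and library (19 classes), among 13284 genes. These points share libraries and depths, and the coefficients are a description. For Gng8 they were Eef1a2 (0.970), Gfy (0.967) and Stmn3 (0.966), and for Gnb1 they were Faim (0.952), Dctn1 (0.950) and Eaf1 (0.948). For Gnao1 they were Rtn2 (0.915), Ank2 (0.910) and Ebf2 (0.902), and for Gng13 they were Eci3 (0.879), Ppp1r1a (0.834) and Kcns3 (0.831). For Gnai2 the highest were Washc4 (0.689), Rab4b (0.663) and Gcnt2 (0.613), lower coefficients than for the other members.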

How the data were processed

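Single-cell suspensions of the vomeronasal organ were profiled with 10x Genomics 3' chemistry in 3 libraries, 1 per group. The deposited values are whole UMI counts per gene and barcode, not normalised, which the authors made with Cell Ranger (per the file headers, version 4.0.0 at P10 and 6.0.1 at 3 months). The submitters' processing notes name mm10 and Seurat 3.2.3. Groups came from the sample labels, as the paper's methods cover the control library alone. The title of the third sample gives postnatal day 90 and its age label 3 months. Every barcode held at least 500 UMIs, and pairs of libraries shared 21 to 30 barcodes (at most 0.338%).

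Kept cells (median UMIs 10236, 10766.5 and 5010.5) were log-normalised to 10000 UMIs, and 2000 variable genes, without receptor, G protein, mitochondrial and Tfap2e genes, were clustered jointly by Leiden (30 components, 20 neighbours, resolution 1) with scanpy 1.11.5. Clusters of the lineage were split further (15 components, resolution 2). Names came from marker lists and are rebuilt, "-like" names. How clusters were scored, how finely lineage clusters were split and which were called mixed (2.80%, 1.54% and 0.704% of cells, left out) was settled after clusters had been seen. Scrublet marked 3, 1 and 0 cells, so it did not work as a caller, doublets were kept, and an alternative left out the 349, 291 and 621 cells with the highest scores. Free RNA was not corrected.

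The members, marker lists and gene lists were chosen with earlier results of these data known. Named beyond the members are list genes with at least 10 UMIs that passed 2-fold with an interval leaving out 1, and the 3 genes most alike in pattern. Ratios were tested on simulated pooled counts that held counting error only, so variation between cells or mice was not covered. With 1 library per group no p-value was computed. Trpc2 was not analysed here, as no feature carries that symbol. Coordinates are from GENCODE M21. Other tools were Python 3.11.15, numpy 2.4.6, scipy 1.17.1 and pandas 2.3.3. The alternatives varied the mitochondrial limit, doublets, receptor thresholds, weighting, depth, denominator, top cell, clustering, staging and free RNA.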

Additional observations from a re-analysis of the deposited data

Results flagged for a closer look

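Gnai2 moved in opposite directions in the 2 mature neuron types between the P10 libraries. Its P10 mutant to P10 control ratio was 0.790 in V1R neurons and 3.84 in V2R neurons, and the difference between the ratios was not tested. The V2R ratio was 0.982 without the V2R cells in which Gnai2 made up at least 80% of the alpha subunit UMIs, a choice of cells made on Gnai2 itself.

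A signal lay outside the compared classes, in main olfactory-like cells, numbering 8, 1 and 3 (order: P10 control, P10 mutant, 3-month mutant). Gng13 was at 2684, 6693 and 2265 CPM in them, above its level in immune, stromal and endothelial cells. By the same comparison Gnao1 stood out in the first and the last of these libraries, at 218 and 449 CPM. Their defining alpha subunit gene Gnal was at 523, 1598 and 837 CPM, and these cells are too few for any comparison between libraries.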

How the results depend on the processing

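No paired analysis was possible because each group was 1 library. A change of direction was counted only where the interval of the main ratio left out 1. Of 194 recomputed values that answer a comparison, 154 moved by less than the counting interval, 40 moved beyond it, 0 changed direction by that count and 16 moved by over 1.5 times. Of 361 others, 282 did not move beyond it, 70 moved and 9 changed direction. Gng8 mutant to control, whose interval held 1, crossed 1 in values below without being counted. Except where stated, the cause was not tested. Ratios below are V2R to V1R (mature, P10 control), mutant to control (mature V1R, P10), immature to mature (P10 control), 3-month to P10 mutant (mature V1R) and lineage to non-neuronal (P10 control). With a 5% mitochondrial limit, V2R to V1R was 0.131 for Gnai2, mutant to control 0.973 for Gng8, immature to mature 0.391 for Gnai2, 0.542 for Gng8 and 0.176 for Gng13, 3-month to P10 mutant 0.163 for Gnao1 and lineage to non-neuronal 11.8 for Gnb1. With a 20% limit, immature to mature was 0.0937 for Gng13. With each library clustered on its own, V2R to V1R was 17.6 for Gnao1, mutant to control 0.716 for Gnai2, 0.891 for Gng8 and 0.280 for Gng13, immature to mature 0.301 for Gnai2, 0.430 for Gng8 and 0.0269 for Gng13, 3-month to P10 mutant 0.276 for Gnao1 and, reversed, 1.01 for Gng13, and lineage to non-neuronal 10.2 for Gnb1. There the mutant to control ratios of immature V1R neurons were reversed, at 0.767 for Gnai2, 0.456 for Gnao1, 1.45 for Gng13 and 0.760 for Gnb1. With means over cells, V2R to V1R was 0.0830 for Gnai2 and 12.2 for Gnao1, and for Gnb1 of the 3-month mutant it was reversed at 1.06. Mutant to control was 2.77 for Gnao1 and 0.848 for Gnb1, immature to mature 0.0784 for Gng13, 3-month to P10 mutant 0.166 for Gnao1 and lineage to non-neuronal 6.99 for Gnb1. With stage read from Omp against Gap43, V2R to V1R was 0.198 for Gnai2, 1.44 for Gng8, 0.210 for Gng13 and 0.887 for Gnb1, immature to mature 0.375 for Gnai2, 3.96 for Gnao1, 0.619 for Gng8 and 0.185 for Gng13, and lineage to non-neuronal 7.21 for Gnb1. Without the top cell, V2R to V1R was 0.00920 for Gnai2 and 0.0743 for Gng13, and immature to mature 0.100 for Gng13. Without V2R cells in which Gnai2 led, V2R to V1R was 0.00911 for Gnai2 and 0.0731 for Gng13, and mutant to control in V2R neurons was reversed at 0.982 for Gnai2, as was 3-month to P10 mutant in V2R neurons at 1.04 for Gnai2 and 0.939 for Gnao1, by construction. At least 10 receptor UMIs gave a V2R to V1R ratio of 0.0800 for Gng13. A denominator without mitochondrial, ribosomal, hemoglobin and 2 nuclear genes gave 7.59 for Gnb1 in lineage to non-neuronal. The alternatives limited to the main sub-cluster, without Gnai2-led cells and without immature V1R cells holding main olfactory genes were chosen after seeing the data. Depth limited the 3-month neurons, in which 28 of 53 V1R and 30 of 70 V2R cells held under 2000 UMIs.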

Other observations

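Mature neurons whose receptor UMIs were too few for a class numbered 46, 12 and 44 (order: P10 control, P10 mutant, 3-month mutant). Gnai2 made up at least 80% of the alpha subunit UMIs in all 15 P10 control and all 8 P10 mutant cells of them that had at least 5 such UMIs. Gng13 in these unassigned cells was at 2647 CPM (control) and 1196 CPM (mutant) at P10, and Gnao1 at 47.1 and 149 CPM. Both genes stood in the same order between the P10 libraries as in mature V1R neurons. These cells were shallow, with median UMIs of 1273 and 2634.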
